A study of Mus musculus with 23 samples.

Results

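The goblet cell and mucus genes described here are Muc2, Tff3, Agr2, Spdef, Fcgbp, Clca1, Zg16, Spink4, Atoh1 and Reg4, chosen by gene name from the deposited count table. All 10 were found, among 54354 gene identifiers. RNA was sequenced in bulk from 11 GFP-positive and 12 GFP-negative mouse libraries. Both populations came from AKP organoids marked with tdTomato (tdT) and carrying Basp1-eGFP-DTR, a reporter of Basp1 joined to the diphtheria toxin receptor. The organoids had been injected into the mouse colon, and primary tumours were dissociated and their cells sorted on GFP. The labels name the tissue as colon and the genotype as Basp1-GFP for every library, so the comparison sets reporter-positive against reporter-negative cells of the same tumour model. The sources used here give no age, strain or sex of the animals and no number of organoid clones, and no label ties a diet to a library although the series title carries the letters HFD. The protocol text names organoids as the source of the RNA and the design text names tumours, so the source could not be settled. Libraries are named by population and replicate number, and the identifier that opens a library name (such as 61-1 or 40-1) is read as possibly marking libraries of shared origin; 10 identifiers held both populations. One of these, 8045-8050, is named so only for GFP-positive 4, and was joined here with GFP-negative 5 (8045) and GFP-negative 4 (8050).

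Goblet cells are the secretory cells of the intestinal lining that fill granules with mucin and release it to build the mucus layer. Their fate is set by the transcription factor Atoh1 downstream of Notch signalling and their maturation by Spdef. The gel itself is made of the mucin Muc2, which needs the endoplasmic reticulum protein Agr2 for folding and is packed together with Fcgbp, Clca1, Zg16 and Tff3. In the colon these genes are strong in normal mucosa, and mucinous tumours can express them as well. In bulk RNA, fewer cells of a type and less RNA per cell cannot be told apart.

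Total counts ran from 37125 to 4238877 in GFP-positive libraries (median 1418140, n = 11) and from 25458 to 2304316 in GFP-negative libraries (median 144334, n = 12). A single count stood for 0.236 CPM (counts per 1000000 of the library total) in the deepest library, GFP-positive 1, and for 39.3 CPM in the shallowest, GFP-negative 5. GFP-positive 4 and GFP-negative 4, 5 and 12 held fewer than 100000 counts. GFP-positive 3 stood apart by 33251 summed CPM of 14 macrophage and monocyte genes, while the remaining GFP-positive libraries had 147 to 1169. GFP-positive 1 and GFP-negative 1, both of identifier 3034, held 5548 and 12200 summed CPM of pancreatic acinar genes, against at most 336 in any other library. Basp1, which marks the sort, overlapped between the populations with 13.3 to 108 CPM (median 51.3) in GFP-positive and 0 to 83.8 CPM (median 27.7) in GFP-negative libraries.

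The start regions of the genes are shown first as a description, and no test linked them to the levels. RefSeq start regions (GRCm38.p6, 250 bases before to 50 after the annotated start) were at hand for 6 of the 10 genes. Those of Muc2 (chr7:141690090-141690389, plus strand), Fcgbp (chr7:28070986-28071285, plus strand) and Agr2 (chr12:35992675-35992974, plus strand) are printed 5′ to 3′ as those of the gel-forming mucin, its granule partner and its folding factor. Capitals mark CAGCTG, an E-box of the kind bound by Atoh1-type factors, and TTTATG, of the kind bound by caudal-type factors such as Cdx2. They also mark TATAAA, the letters of a TATA box, at any distance from the start. All were sought on either strand.
Muc2: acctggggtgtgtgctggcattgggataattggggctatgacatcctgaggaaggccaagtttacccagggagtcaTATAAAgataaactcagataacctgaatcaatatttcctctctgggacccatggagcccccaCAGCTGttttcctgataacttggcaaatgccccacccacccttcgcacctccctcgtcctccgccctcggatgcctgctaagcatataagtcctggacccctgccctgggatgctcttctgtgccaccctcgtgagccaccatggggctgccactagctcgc
Fcgbp: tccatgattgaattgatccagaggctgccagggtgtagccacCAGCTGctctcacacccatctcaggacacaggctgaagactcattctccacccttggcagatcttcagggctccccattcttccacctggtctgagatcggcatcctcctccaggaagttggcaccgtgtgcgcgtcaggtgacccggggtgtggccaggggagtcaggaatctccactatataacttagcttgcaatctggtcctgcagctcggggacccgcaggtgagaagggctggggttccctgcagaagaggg
Agr2: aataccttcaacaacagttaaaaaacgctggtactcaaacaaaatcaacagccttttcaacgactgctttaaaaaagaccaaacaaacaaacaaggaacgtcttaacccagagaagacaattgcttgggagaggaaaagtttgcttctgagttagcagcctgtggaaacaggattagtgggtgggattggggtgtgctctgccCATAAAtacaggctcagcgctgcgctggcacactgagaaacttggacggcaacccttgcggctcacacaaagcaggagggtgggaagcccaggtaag

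CAGCTG (its own reverse complement) occurred in 2 of the 6 start regions, those of Muc2 and Fcgbp, and in 16.3% of all 32851 start regions of the same length. TTTATG or its reverse complement CATAAA occurred in 2 of 6, those of Agr2 and Spdef, and in 11.9% of all. TATAAA or its reverse complement TTTATA occurred in 1 of 6, that of Muc2, and in 13.6% of all. None of the marked matches overlapped another in the printed regions. A match is a run of letters and was not tested as a binding site.

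None of the 10 genes differed between GFP-positive and GFP-negative cells at the threshold used (adjusted p under 0.05 over all genes tested, with the quasi-likelihood test of edgeR and Benjamini-Hochberg adjustment). Of the 10, 8 passed the filter on low counts, and 0 of these 8 were called, while 1 of all 6621 tested genes was called (0.0151%). At an unadjusted p under 0.05 the members called were also 0 of 8, against 4.95% of all tested genes, and DESeq2 called 0 of the 8, against 0.612% of all genes to which it gave an adjusted p (Spdef and Atoh1 received none). Fitted log2 fold changes, GFP-positive over GFP-negative, were positive for 7 of 8 members with a median of 0.58, against positive values for 58.5% and a median of 0.07 over all tested genes. The 95% intervals were wide: the narrowest, that of Agr2, ran from -0.66 to 1.23 and the widest, that of Clca1, from -0.76 to 2.88, so differences of about the size of either bound could not be told from none.

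**Figure D1:**
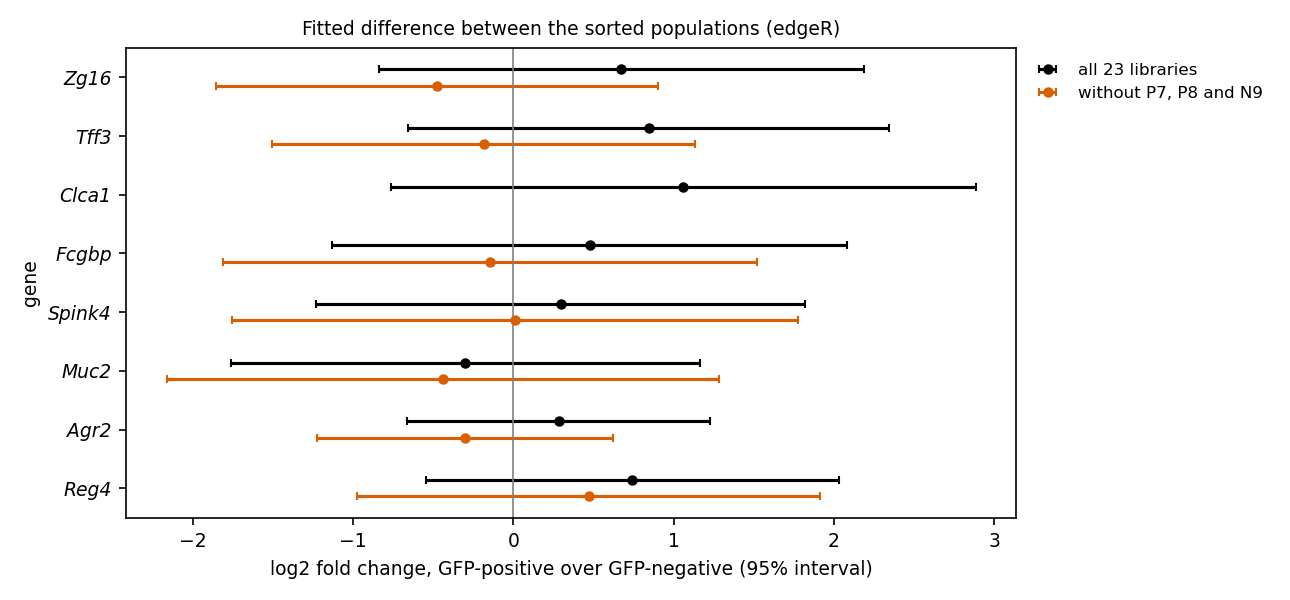
Fitted log2 fold change of the 8 tested genes (x axis, GFP-positive over GFP-negative, with 95% interval) for all 23 libraries in black and without GFP-positive 7 (P7), GFP-positive 8 (P8) and GFP-negative 9 (N9) in orange, where Clca1 fell below the filter and has no value. Every interval spans 0. The points of Zg16, Tff3, Fcgbp and Agr2 lie above 0 in black and below 0 in orange, and those of Muc2 lie below 0 in both.

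Muc2 (ENSMUSG00000025515, chromosome 7, 141690340 to 141754693 on mm10, plus strand) encodes the gel-forming mucin of the colon. It had 0 to 496 CPM in GFP-positive libraries (median 139) and 0 to 727 CPM in GFP-negative libraries (median 72.5). The populations overlapped over nearly their whole range, with the highest values in GFP-positive 11 and GFP-negative 7, and the 3 libraries at 0 all held fewer than 100000 counts. Its log2 fold change was -0.30 (SE 0.70, edgeR adjusted p = 0.997), and the sign turned to 0.22 without GFP-negative 7 and to 0.06 without GFP-negative 1.

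Spink4 (ENSMUSG00000028415, chromosome 4, 40920052 to 40931395, plus strand), a secreted Kazal-type peptide of goblet cells, had the highest level of the 10 genes per kb of transcript, a mean of 2138 CPM per kb over all libraries, by the longest annotated transcript. Muc2 is annotated in fragments, so its level per kb (54.8) is uncertain. Spink4 had 0 to 2180 CPM in GFP-positive libraries (median 753) and 52.0 to 2766 CPM in GFP-negative libraries (median 275). The value of 0 was that of GFP-positive 4, where 3 counts, the limit set for a count of 0, would stand for 80.8 CPM. Its log2 fold change was 0.30 (SE 0.73, edgeR adjusted p = 0.997).

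Zg16 (ENSMUSG00000049350, chromosome 7, 127050156 to 127087328, minus strand) encodes a lectin that binds bacteria in mucus. A gene annotated on the opposite strand within its span, Gm44939, had 0 counts. Zg16 had 41.7 to 2650 CPM in GFP-positive libraries (median 263) and 38.1 to 991 CPM in GFP-negative libraries (median 241). GFP-positive 8 and GFP-positive 7, at 2650 and 2031 CPM, lay above every GFP-negative library, and the other 9 GFP-positive libraries overlapped with them. Its log2 fold change was 0.67 (SE 0.73, edgeR adjusted p = 0.997).

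Tff3 (ENSMUSG00000024029, chromosome 17, 31125306 to 31129646, minus strand), the trefoil peptide that goblet cells release for mucosal repair, followed the same order at its top. It had 26.9 to 1347 CPM in GFP-positive libraries (median 155) and 0 to 576 CPM in GFP-negative libraries (median 118). GFP-positive 8 and GFP-positive 7 had 1347 and 1195 CPM, above all GFP-negative libraries, of which GFP-negative 9 was the highest. Its log2 fold change was 0.84 (SE 0.72, edgeR adjusted p = 0.997).

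Clca1 (ENSMUSG00000028255, chromosome 3, 145003817 to 145032776, minus strand), a secreted metalloprotease that processes Muc2, had 0 to 479 CPM in GFP-positive libraries (median 23.8) and 0 to 166 CPM in GFP-negative libraries (median 10.9). Fcgbp (ENSMUSG00000047730, chromosome 7, 28071236 to 28120862, plus strand), a large protein linked to Muc2 in the gel, had 8.56 to 273 CPM in GFP-positive libraries (median 28.3) and 0 to 186 CPM in GFP-negative libraries (median 16.6). Both were again highest in GFP-positive 8 and 7, and 4 GFP-negative libraries had no count of Clca1 and 5 none of Fcgbp. The 5 GFP-negative libraries with no count of 1 or both genes held 25458 to 157362 counts, a depth at which low levels may give no count. The log2 fold changes were 1.06 for Clca1 (SE 0.88) and 0.48 for Fcgbp (SE 0.77), neither called by edgeR (adjusted p = 0.997 for both).

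Agr2 (ENSMUSG00000020581, chromosome 12, 35992907 to 36004087, plus strand), the disulfide isomerase that folds Muc2, was counted in all 23 libraries. It had 215 to 1129 CPM in GFP-positive libraries (median 372) and 68.6 to 862 CPM in GFP-negative libraries (median 240). Its range within each population was the narrowest in ratio among the genes counted in at least 20 libraries. Its log2 fold change was 0.28 (SE 0.46, edgeR adjusted p = 0.997).

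Reg4 (ENSMUSG00000027876, chromosome 3, 98222156 to 98236748, plus strand), a secreted lectin-like protein that marks the deep crypt secretory cells of the mouse colon, had 13.5 to 651 CPM in GFP-positive libraries (median 184) and 0 to 431 CPM in GFP-negative libraries (median 87.2). It was highest in GFP-positive 5, of identifier 7421, and, among GFP-negative libraries, in GFP-negative 1, and the populations overlapped. Its log2 fold change was 0.74 (SE 0.62, edgeR adjusted p = 0.997).

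The fate factors themselves were close to the limit of counting. Spdef (ENSMUSG00000024215, chromosome 17, 27714352 to 27728955, minus strand) summed to 49 counts over 11 GFP-positive and 6 counts over 12 GFP-negative libraries, and was counted in 6 and in 3 of them. Atoh1 (ENSMUSG00000073043, chromosome 6, 64729125 to 64731245, plus strand) summed to 21 counts over the GFP-positive and 6 over the GFP-negative libraries, and was counted in 4 and in 2 of them. Both fell below the filter. With no filter the edgeR fit over 23846 genes put Spdef at 1.90 on the log2 scale (SE 0.94), with an unadjusted p of 0.048 and an adjusted p of 0.439. DESeq2 put it at 1.00 (SE 1.25, unadjusted p = 0.425), with no adjusted p. In the edgeR fit with no filter 11.1% of all genes had an unadjusted p under 0.05, and 0.00419% were called. In GFP-positive 8, the library with the most Zg16, Tff3 and Clca1, Spdef had 0 counts among 3903913, which allows up to 0.768 CPM, and Atoh1 had 11 counts.

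**Figure D2:**
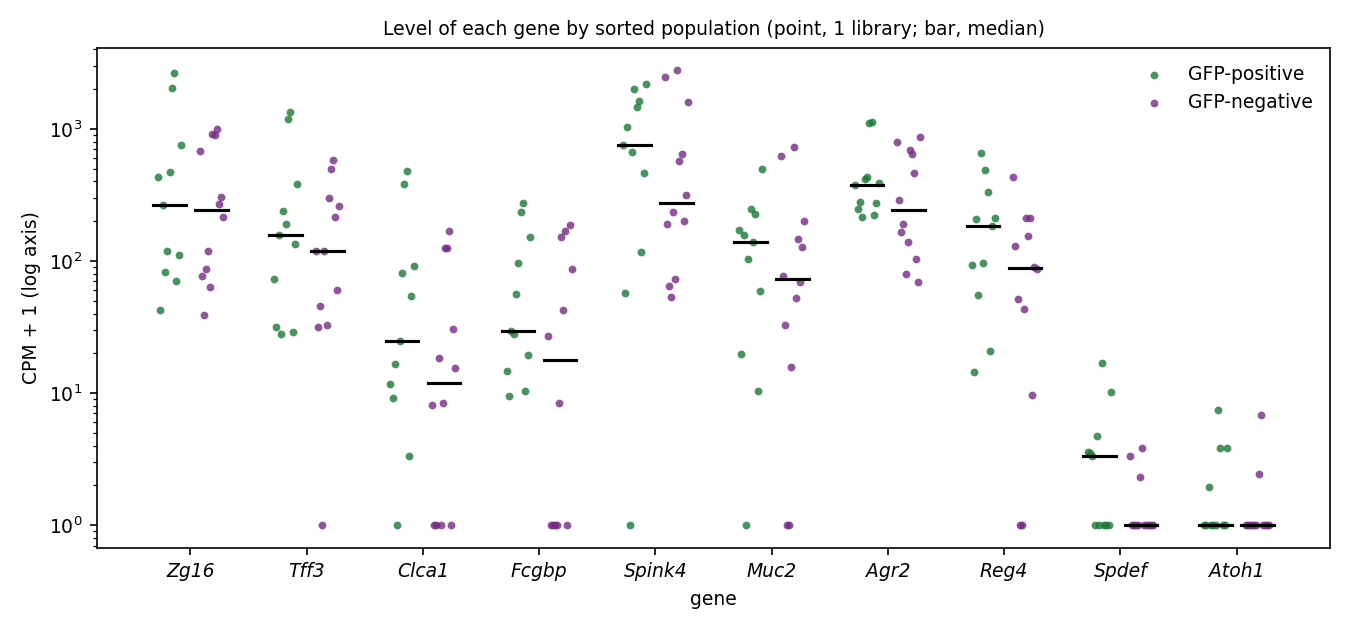
Level of each of the 10 genes (y axis, CPM + 1 on a log axis) in each GFP-positive (green) and GFP-negative (purple) library, with the median as a bar. The populations overlap for every gene, and the 2 highest GFP-positive points of Zg16, Tff3 and Clca1 are GFP-positive 8 and 7.

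The larger differences lay between libraries of the same population. The summed level of the 10 genes ran from 404 to 8075 CPM in GFP-positive libraries (median 2135) and from 346 to 5885 CPM in GFP-negative libraries (median 1019). The sum leans on its largest member: without it, GFP-positive 6 had 1611 CPM in place of 3622. The edgeR biological coefficient of variation, which describes spread between libraries beyond counting noise, was 0.739 for Agr2 and 1.04 to 1.55 for the other 7 tested members, against a median of 0.440 over all tested genes. These values lay above those of 94.7% of tested genes for Agr2 and of 97.3% to 99.5% for the others. Spdef and Atoh1, below the filter, have no such value.

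**Figure D3:**
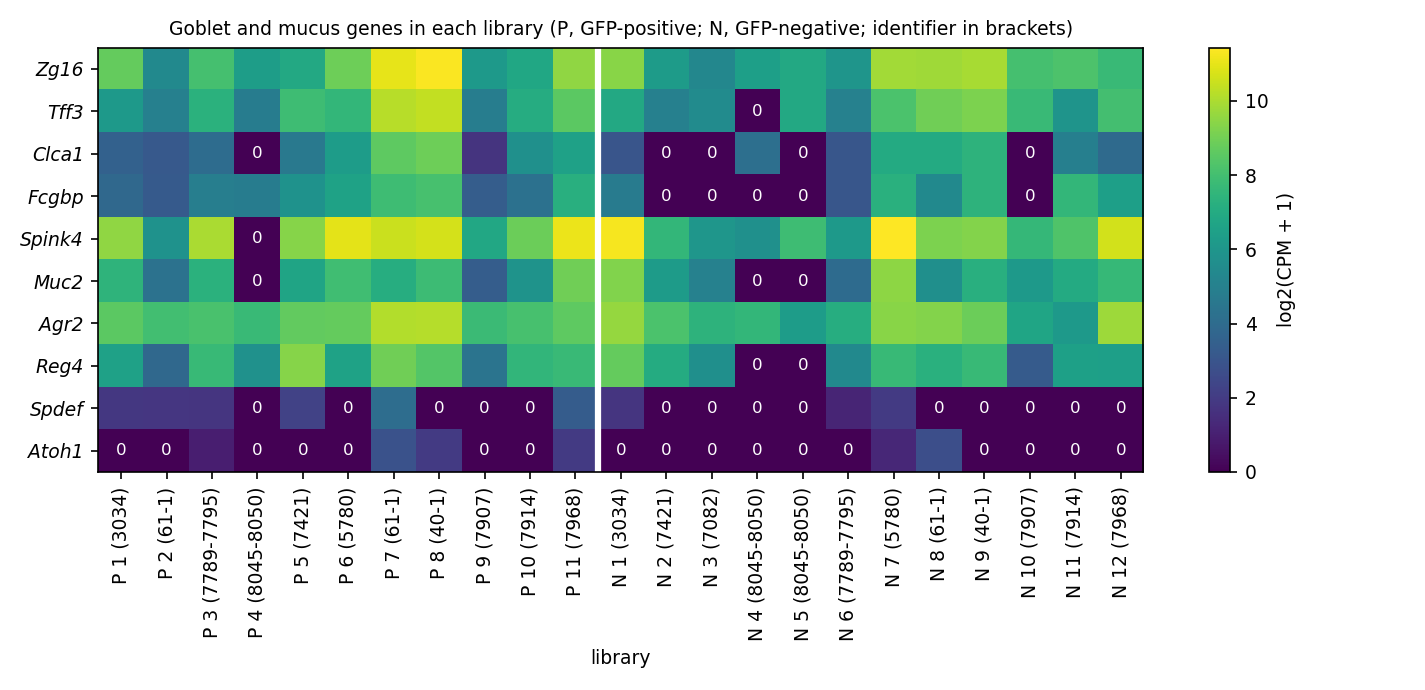
Level of each gene (rows, log2(CPM + 1) by colour) in each library (columns, GFP-positive P 1 to P 11 left of GFP-negative N 1 to N 12, identifier in brackets); a white 0 marks a count of 0. P 7, P 8, N 8 and N 9 are the highest for Tff3, and P 6, P 11, N 1 and N 7 for Spink4. P 7 and P 8 are the highest for Zg16, and N 7 is about as bright for it as N 8 and N 9. Spink4 is also bright in P 7, P 8 and N 12.

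GFP-positive 8, of identifier 40-1, and GFP-positive 7, of identifier 61-1, had the highest summed levels of all 23 libraries, 8075 CPM (95% exact binomial interval 7986 to 8164) and 7049 CPM (6843 to 7259). Such intervals cover counting error only. GFP-negative libraries of the same identifiers had 3360 CPM in GFP-negative 9 (3254 to 3469, identifier 40-1) and 2971 CPM in GFP-negative 8 (2858 to 3088, identifier 61-1). GFP-positive 2 carries the identifier 61-1 as well, and had 429 CPM (405 to 453). Its Zg16 level was 41.7 CPM, against 2031 CPM in GFP-positive 7, and these libraries of 1 population and 1 identifier held 2804938 and 626754 counts. The names of GFP-positive 7, GFP-positive 8 and GFP-negative 9 end in -2, a suffix the labels do not explain, and GFP-positive 2 comes from the first of the 2 runs of library numbers while the others come from the second.

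In identifier 5780 GFP-positive 6 had 3622 CPM in sum and GFP-negative 7 had 5885 CPM. In identifier 3034 GFP-positive 1 had 1917 CPM and GFP-negative 1 had 5152 CPM. In identifier 7968 GFP-positive 11 had 4655 CPM and GFP-negative 12 had 3320 CPM (2906 to 3776, from 231 counts). At the other end GFP-positive 2, 4 and 9 and GFP-negative 3, 4 and 6 each lay below 500 CPM, and of these GFP-positive 2 and GFP-negative 6 held 2804938 and 2304316 counts, so their low values do not rest on few counts.

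Within identifiers the sign of the difference was mixed. In 5 of 10 identifiers the GFP-positive cells had the higher summed level, with log2 differences from -1.43 in identifier 3034 to 2.49 in identifier 7789-7795 and a mean of 0.20 ± 1.24 (SD, n = 10). Identifier 61-1 counts as lower at -0.77 because GFP-positive 2 and 7 were averaged. Without GFP-positive 2, from the other run of library numbers, its difference was 1.25 and the count became 6 of 10. The positive extreme set 2135 CPM in GFP-positive 3, the library with macrophage transcripts, against 379 CPM in GFP-negative 6. Single genes were higher in GFP-positive cells of 4 identifiers (Zg16) to 7 identifiers (Clca1, Fcgbp and Reg4), apart from Atoh1 with 3, whose difference was 0 in several. Some of these signs rest on few counts, given here as GFP-positive against GFP-negative. In identifier 8045-8050 they were 1 against 0 for Fcgbp and 2 against 0 for Reg4, and 0 against 1 for Clca1, the other way. In identifier 7907 they were 2 against 0 for Clca1, 8 against 0 for Fcgbp and 17 against 1 for Reg4.

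The make-up of the signal ranged from libraries with much Zg16, Tff3 and Clca1 to those with much Spink4 and Muc2. Agr2 was instead the most counted member in GFP-positive 2, 4 and 9 and GFP-negative 2, 3, 4 and 6. It took 36.5% to 57.8% of the member counts there. The number of Zg16 counts per Spink4 count was 1.40 in GFP-positive 7, 1.62 in GFP-positive 8, 1.56 in GFP-negative 8 and 1.55 in GFP-negative 9, the libraries of 61-1 and 40-1 from the second run of library numbers. It was 0.135 to 0.343 in both libraries of 5780, both of 7968, GFP-negative 1, and GFP-positive 3, 5 and 10. A ratio of counts depends on transcript length in its size, but its change from library to library does not. Counts of Tff3 per count of Muc2 were also highest in these 4 libraries, with 8.61 in GFP-positive 7, 5.98 in GFP-positive 8, 9.64 in GFP-negative 8 and 3.95 in GFP-negative 9, against 0.189 in GFP-negative 1 and 0.407 in GFP-negative 7. GFP-negative 10, of identifier 7907, had 1.35 Zg16 counts per Spink4 count and 3.13 Tff3 counts per Muc2 count, from 8 to 31 counts of each gene. GFP-negative 4 had 1.67 Zg16 counts per Spink4 count, from only 5 and 3 counts. Values in between, 0.400 to 0.969 Zg16 counts per Spink4 count, were found in GFP-positive 1, 2 and 9 and GFP-negative 2, 3, 5, 6 and 11.

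**Figure D4:**
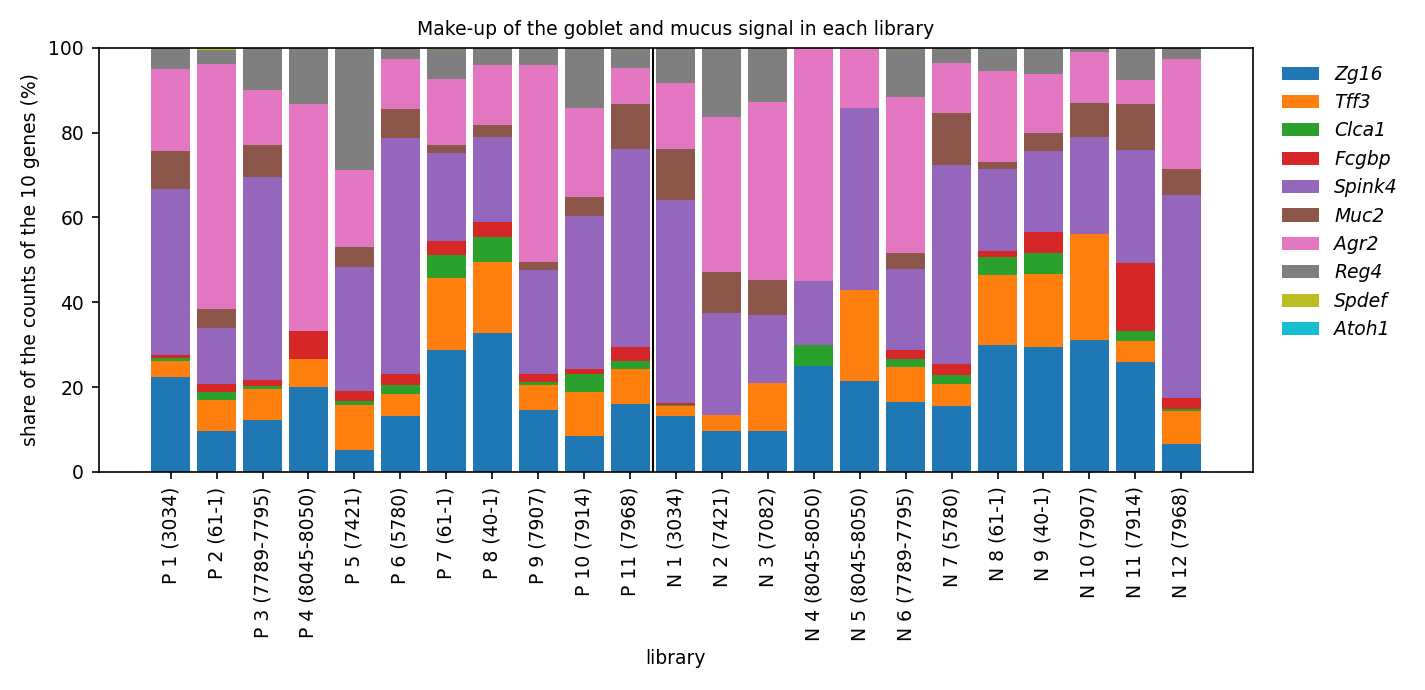
Share of the counts of the 10 genes taken by each gene (y axis, percent) in each library (x axis, GFP-positive P left of GFP-negative N, identifier in brackets). Zg16 is the most counted gene in P 7, P 8, N 8, N 9 and N 10, and Spink4 is so in, among others, P 3, P 6, P 11, N 1, N 7 and N 12. Agr2 is so in P 2, P 4, P 9, N 2, N 3, N 4 and N 6.

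Pairs of members were compared over the 19 libraries with at least 100000 counts, as a description. Among the 45 pairs, the highest Spearman rho of log2(CPM + 1) was 0.93 for Muc2 with Spink4, followed by 0.90 for Fcgbp with Clca1 and 0.86 for Tff3 with Zg16. Muc2 with Clca1 gave 0.46. Genes from opposite ends of the make-up also varied together, with 0.79 for Zg16 with Spink4 and 0.72 for Muc2 with Zg16, against 0.81 for Clca1 with Zg16. Libraries of an identifier share a possible source, so these points are not independent. Fcgbp with Muc2, whose start regions both hold CAGCTG, gave 0.60. Spink4, Clca1, Tff3 and Zg16, each in one of the highest pairs, had no start region at hand. A link between motifs and shared levels was not tested.

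Genes of normal absorptive colonocytes, the other main cell of colon mucosa, were high in sum in the same libraries, though not each of them was. The 22 listed colonocyte genes summed to 8288 CPM in GFP-positive 8 and 6909 CPM in GFP-positive 7, the 2 highest of all libraries, against 1185 to 4670 CPM in the other GFP-positive and 1026 to 4166 CPM in the GFP-negative libraries. Of the 22 genes, 20 were counted in GFP-positive 8 and 18 in GFP-positive 7. This number did not set them apart, with 19 in GFP-positive 2, 21 in GFP-positive 11 and 20 in GFP-negative 7. Lypd8, a surface protein that keeps bacteria off the epithelium, had 2886 and 1881 CPM in GFP-positive 8 and 7, against 59.9 CPM in GFP-positive 2. Guca2a, which encodes guanylin, had 1051 and 742 CPM in GFP-positive 8 and 7, against 9.27 CPM in GFP-positive 2. The chloride-bicarbonate exchanger Slc26a3 and the membrane carbonic anhydrase Car4, 2 genes defining mature colonocytes that were named after their values were seen, had 52.5 and 107 CPM in GFP-positive 8 and 41.5 and 78.2 CPM in GFP-positive 7. Both genes had at most 3 counts in GFP-positive 2, among 2804938. Neither was particular to GFP-positive 7 and 8: Car4 had 148 CPM in GFP-positive 11, 172 CPM in GFP-negative 12 and 92.1 CPM in GFP-negative 7, and Slc26a3 had 42.3 CPM in GFP-positive 11 and 78.4 CPM in GFP-negative 11, the last from 8 counts. Other listed genes did not follow. Clca4b had 0 counts in GFP-positive 7 and 8, against 13 in GFP-positive 6 and 33 in GFP-negative 7. Clca4a had 0 counts in GFP-positive 7 and 48 in GFP-positive 8. Aqp8 was highest among GFP-positive libraries in GFP-positive 8, but GFP-positive 7 lay below GFP-positive 1, 3 and 11. Cd177 was lower in GFP-positive 7 and 8 than in GFP-positive 5, 10 and 11.

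**Figure D5:**
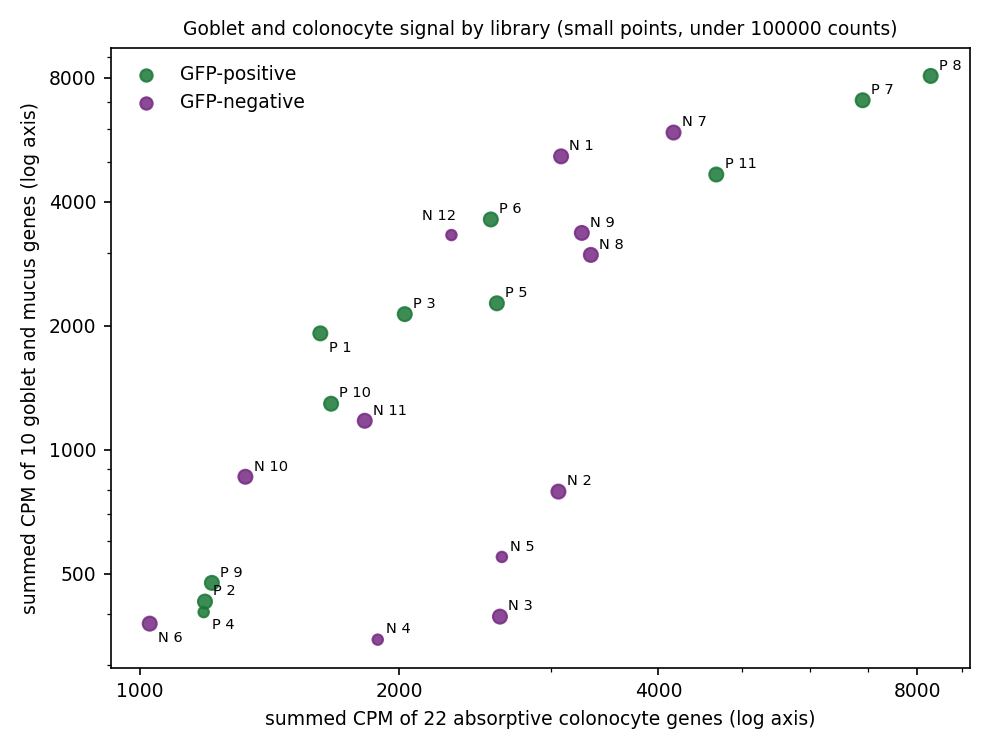
Summed CPM of the 10 goblet and mucus genes (y axis) against summed CPM of 22 absorptive colonocyte genes (x axis), both on log axes, for each GFP-positive (green, P) and GFP-negative (purple, N) library, with small points under 100000 counts. P 8 and P 7 lie highest on both axes, and N 2 to N 5 have 1888 to 3062 CPM of colonocyte genes with 346 to 792 CPM of goblet and mucus genes.

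GFP-negative 2, 3, 4 and 5 did not follow this order. Their colonocyte genes summed to 1888 to 3062 CPM, of which the carbonic anhydrase genes Car1 and Car2 gave 471 to 670 and 676 to 1436 CPM, while Slc26a3 had at most 1 count and Car4 at most 1 count in each. Their goblet and mucus genes summed to 346 to 792 CPM. A count of 0 allows up to 19.1 CPM in GFP-negative 3 and 118 CPM in GFP-negative 5, the deepest and the shallowest of the 4. Car1 was named after its values were seen.

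Mptx1, a mucosal pentraxin and the most abundant gene of the Paneth and deep crypt list, differed widely between libraries, also within identifier 61-1. It had 4400 CPM in GFP-positive 7, 3233 CPM in GFP-positive 8, 1688 CPM in GFP-negative 9 and 1297 CPM in GFP-negative 8, against 0 to 402 CPM in the other 19 libraries, with 4.28 CPM in GFP-positive 2. GFP-negative 10 and 4, which also had more Zg16 than Spink4 counts, had 60.2 CPM and 0. GFP-positive 11 and GFP-negative 7, where Spink4 was the most counted member, had 231 and 163 CPM.

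Markers of immune and stromal cells were compared in the same libraries. The 14 macrophage and monocyte genes summed to 147 CPM in GFP-positive 7 and 207 CPM in GFP-positive 8, against 4979 CPM in GFP-negative 9 and 2979 CPM in GFP-negative 8. The 10 fibroblast genes summed to 215 and 490 CPM in GFP-positive 7 and 8, against 9169 and 3303 CPM in GFP-negative 9 and 8. The median over GFP-positive libraries was 372 CPM for the macrophage and 215 CPM for the fibroblast genes, so the fibroblast sum of GFP-positive 8 lay above it. The 8 plasma and B cell genes, which mark the lamina propria, summed to 33.5 CPM in GFP-positive 7, 3.59 CPM in GFP-positive 8, 7.12 CPM in GFP-negative 9 and 0 in GFP-negative 8. Their medians were 18.8 CPM over GFP-positive and 15.9 CPM over GFP-negative libraries, and GFP-positive 2 had the most, 296 CPM. The 10 genes of epithelial identity summed to 6227 and 6760 CPM in GFP-positive 7 and 8, within the range of 2503 to 7120 CPM of the other GFP-positive libraries. The 12 WNT feedback genes, which stay active in Apc-mutant tumour cells, summed to 606 and 664 CPM there, close to the median of 613 CPM over GFP-positive libraries.

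Basp1 was lowest among GFP-positive libraries in the same pair, with 13.3 CPM in GFP-positive 8 (52 counts) and 14.4 CPM in GFP-positive 7 (9 counts), against 34.1 to 108 CPM in the other 9. Whether normal mucosal cells or tumour cells with goblet and colonocyte genes gave the RNA of GFP-positive 7 and 8 cannot be told apart from these counts. The pancreatic acinar genes of identifier 3034 included Ctrb1 at 816 CPM in GFP-positive 1 and 1504 CPM in GFP-negative 1. GFP-negative 1 also had a high summed level of goblet and mucus genes. The part of these transcripts and of the colonocyte genes in the goblet and mucus levels was not tested.

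The genes most like the 10 were sought among 6021 others with a mean of at least 20 CPM over the 19 deeper libraries. The 8 with the highest Spearman rho to the mean log2(CPM + 1) of the members were Adh1, Serpinb1a, Muc13, Ifi27l2b, Lypd8, Guca2a, Klk1 and Sval1, with rho from 0.95 to 0.91. Adh1, an alcohol dehydrogenase, had 0 to 751 CPM in GFP-positive libraries (median 95.3) and 6.35 to 305 CPM in GFP-negative libraries (median 73.9), highest in GFP-positive 7 and GFP-negative 7. Muc13, a membrane mucin of the epithelial surface, had 0 to 464 CPM in GFP-positive libraries (median 79.0) and 34.4 to 273 CPM in GFP-negative libraries (median 102). Among the lists chosen here, Lypd8 and Guca2a belong to the colonocyte list and none of the other 6 to a goblet list. Which cells gave the transcripts of these genes was not tested.

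Other genes of the goblet lineage and of mucin making were described beside the members. Of 17 other goblet products, 5 passed the filter and 0 were called by edgeR in either direction. Fam3d, a secreted gut protein, had 511 and 472 CPM in GFP-positive 7 and 8 and 20.3 CPM in GFP-positive 2, and a log2 fold change of 0.31 (SE 0.68). Ccl6, a chemokine, had its highest level in GFP-positive 3, and Tff1, a trefoil peptide of the stomach, had a log2 fold change of -0.87 (SE 0.67).

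Of 10 goblet lineage regulators, 4 were tested and 0 called. Hes1, the Notch target that restrains Atoh1, had 635 CPM in GFP-positive 2 and 471 and 475 CPM in GFP-positive 7 and 8, and a log2 fold change of 0.35 (SE 0.27). Klf4, a factor of epithelial differentiation, had -0.12 (SE 0.33) and Creb3l1, of the secretory stress response, -0.37 (SE 0.47). The 10 regulators summed to 678 and 693 CPM in GFP-positive 7 and 8, near the median of 658 CPM over GFP-positive libraries.

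Of 20 genes of mucin folding, glycosylation and granules, 10 were tested and 0 called, with a median log2 fold change of 0.12. Their summed level ran from 1001 to 1779 CPM in GFP-positive and from 804 to 1620 CPM in GFP-negative libraries, far narrower than that of the 10 members. Vamp8, a SNARE protein of granule release, had 0.34 (SE 0.16, edgeR unadjusted p = 0.038, adjusted p = 0.992). Of 8 membrane mucins, Muc13 and Muc3 were tested, with 0.28 (SE 0.56) and 0.42 (SE 0.66), and 0 were called. Of the 22 colonocyte genes, 11 were tested and 0 called, with a median of 0.43. Of the 11 enteroendocrine and 9 tuft genes, secretory and sensory cells of the same lining, 2 each were tested and 0 called.

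The 2 runs of library numbers were read as a possible batch, and a difference between them was not tested. In the second run the mean level of Zg16 was 1014 ± 1075 CPM (SD, n = 6) in GFP-positive and 598 ± 371 CPM (SD, n = 6) in GFP-negative cells. In the first run it was 187 ± 160 CPM (SD, n = 5) in GFP-positive and 177 ± 249 CPM (SD, n = 6) in GFP-negative cells. The GFP-positive mean of the second run leans on GFP-positive 7 and 8, at 2031 and 2650 CPM. The GFP-positive median of Zg16 was 610 CPM in the second run and 118 CPM in the first. Reg4 differed less, with 222 ± 169 CPM (SD, n = 6) in GFP-positive and 126 ± 79.7 CPM (SD, n = 6) in GFP-negative cells of the second run, and 204 ± 260 CPM (SD, n = 5) in GFP-positive and 109 ± 165 CPM (SD, n = 6) in GFP-negative cells of the first. The log2 fold change of Zg16 was 0.74 (SE 0.88) in the second and -0.01 (SE 0.89) in the first run, with an interaction of 0.71 (SE 1.27, edgeR adjusted p = 0.965). None of the members tested was called in either run or in the interaction, against 1.28% of all tested genes called in the second run, 0 in the first and 0 in the interaction. At an unadjusted p under 0.05 the interaction held 0 of the 8 members and 6.4% of all genes.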

How the data were processed

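RNA of 11 GFP-positive and 12 GFP-negative libraries was compared. The deposited values are expected counts per gene, made by the authors with Salmon 1.3.0 against mm10, per the submitters' processing notes. The libraries were directional and poly(A), per the labels' protocols. The counts were taken as deposited, with no rounding step here. Levels are counts per 1000000 of the library total (CPM). GENCODE M21 gave positions and lengths, and RefSeq the start regions. GFP-positive over GFP-negative was tested in edgeR 4.0.16 (TMM scaling, filterByExpr, robust quasi-likelihood fit, Benjamini-Hochberg adjustment at 0.05) with no covariate, after a test on simulated data. DESeq2 1.42.0, other scaling, no filter, blocks by title number or identifier, library runs and left-out libraries were alternatives. The 10 genes and all lists were chosen with earlier results of these data known. Other genes named are the 3 most abundant of a list and the 8 most like the members. Slc26a3, Car4, Car1, Aqp8, Clca4a and Clca4b were named after their values were seen. Leaving out libraries with suffix -2, identifier 3034, GFP-positive 2 within 61-1, or the joined identifier was chosen after seeing the data. Nothing states that replicates are separate animals, so p-values may measure technical spread only. Same-numbered libraries deviated together (r over 0.1) in 2 of 11 pairs and libraries of 1 identifier in 5 of 12, so neither marks every pair, and neither was treated as pairing in the main test.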

Additional observations from a re-analysis of the deposited data

How the results depend on the processing

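None of the members was called under any of the alternatives run, the replicate blocks included. The 1 gene called among all tested became 61 with DESeq2, 2 with the replicate block by identifier, 0 with the replicate block by title number (244 at an unadjusted p under 0.05), 0 in the first run of library numbers alone (284), 89 in the second run alone and 0 without the libraries with suffix -2 (265), and 0 to 16 with 1 library left out, 16 without GFP-positive 3. The cause was not tested. Directions of uncalled members turned: Muc2 to 0.17 with the replicate block by title number and 0.054 without identifier 3034, with -0.65 to 0.22 over left-out libraries; Zg16 to -0.0063 and Spink4 to -0.053 in the first run alone; and without the libraries with suffix -2 Tff3 to -0.19, Agr2 to -0.30, Fcgbp to -0.15 and Zg16 to -0.47, where Clca1 fell below the filter. The summed level left its 95% counting interval in 15 of 23 libraries with mitochondrial counts out of the total and in 22 of 23 without its largest member. The summed level was higher in GFP-positive cells of 5 of 9 identifiers spelled alike in both populations. Depth limits Spdef and Atoh1 and all genes in libraries under 100000 counts.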
